A study of Mus musculus with 12 samples.

Results

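CD34, podocalyxin and the surface proteins grouped with them here are molecules by which stem and progenitor cells are commonly recognised and sorted. The 8 genes, Cd34, Podxl, Podxl2, Prom1, Prom2, Cd24a, Cd44 and Epcam, were followed among the 47642 genes listed for mouse inner medullary collecting duct cells (mIMCD3). They were chosen from the measured levels of 1 of them, because Cd34 was higher in both knockout lines than in wild-type cells, and the remaining 7 were added as its relatives or as markers used beside it. The levels of Cd34 are therefore a description and carry no test.

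The study asked how transcription changes in renal epithelium when either gene of autosomal dominant polycystic kidney disease is lost. Its 3 genotypes of mIMCD3 were wild-type, Pkd1-/- with the Pkd1 gene deleted by CRISPR, and Pkd2-/- with some exons of Pkd2 deleted by TALEN. All 3 share the SV40 early region carried by the mice from which the line was derived, which keeps the cells dividing. RNA was taken 4 days after the dishes had become confluent, from 4 of 6 dishes per genotype, and each mutant is 1 clone. The spread between libraries is thus that between dishes, it does not cover the variation between clones, and in all 3 comparisons the clone and the deletion cannot be told apart. Both mutants were compared with the same 4 wild-type libraries.

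CD34, podocalyxin (Podxl) and endoglycan (Podxl2) form a family of sialomucins, transmembrane proteins with long, heavily glycosylated outer parts. CD34 is known from haematopoietic progenitors and vessel endothelium, where suitably glycosylated forms bind L-selectin, and podocalyxin coats the foot processes of podocytes and the apical surface of other epithelia. The prominins sit in membrane protrusions, CD44 is the main receptor for hyaluronan, CD24 is a small sialylated protein held by a lipid anchor, and EpCAM is an adhesion molecule of epithelial cells.

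Values are read counts per gene divided by a size factor for each library, called normalized counts below, and the 12 libraries sum to between 25966273 and 28027792 of them, with 18611 to 19360 genes above 0. Differences are given on the log2(normalized count + 1) scale with their standard error. The 18552 genes that averaged 1 normalized count or more were tested with limma, with Benjamini-Hochberg adjustment over all of them. A gene is said to have risen or fallen where its adjusted p-value was under 0.05, and it is said to be called where its log2 fold change was also at least 1 in size. Pkd1 fell from 782.25 ± 112 (SD, n = 4) normalized counts in wild-type to 41.75 ± 8.81 in Pkd1-/-, whereas Pkd2, of which only some exons were removed, was at 3971 ± 451 in wild-type and 3986 ± 124 in Pkd2-/-, so the gene total does not check that deletion. Of the collecting duct markers, Aqp2, the vasopressin-regulated water channel, was at 0 in every library, Avpr2 was at most 1 and Aqp3 at most 6, while the epithelial genes Cdh1, Krt8, Krt18, Pax2 and Pax8 were at 1744 or more in every library.

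Among the 6 tested members other than Cd34, 3 rose and 1 fell in Pkd1-/- against wild-type. Of all genes tested, 13.6% rose and 13.5% fell in that comparison. Prom2 and Cd44 were called higher and no member was called lower, where 2.96% of all genes were called higher and 3.28% lower. In Pkd2-/- against wild-type 2 of the 6 rose and 3 fell, beside 20.0% and 22.3% of all genes. Podxl was called higher and Cd44 lower, beside 3.24% and 6.38% of all genes. Podxl2 did not reach the minimum mean and was not tested.

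**Figure D1:**
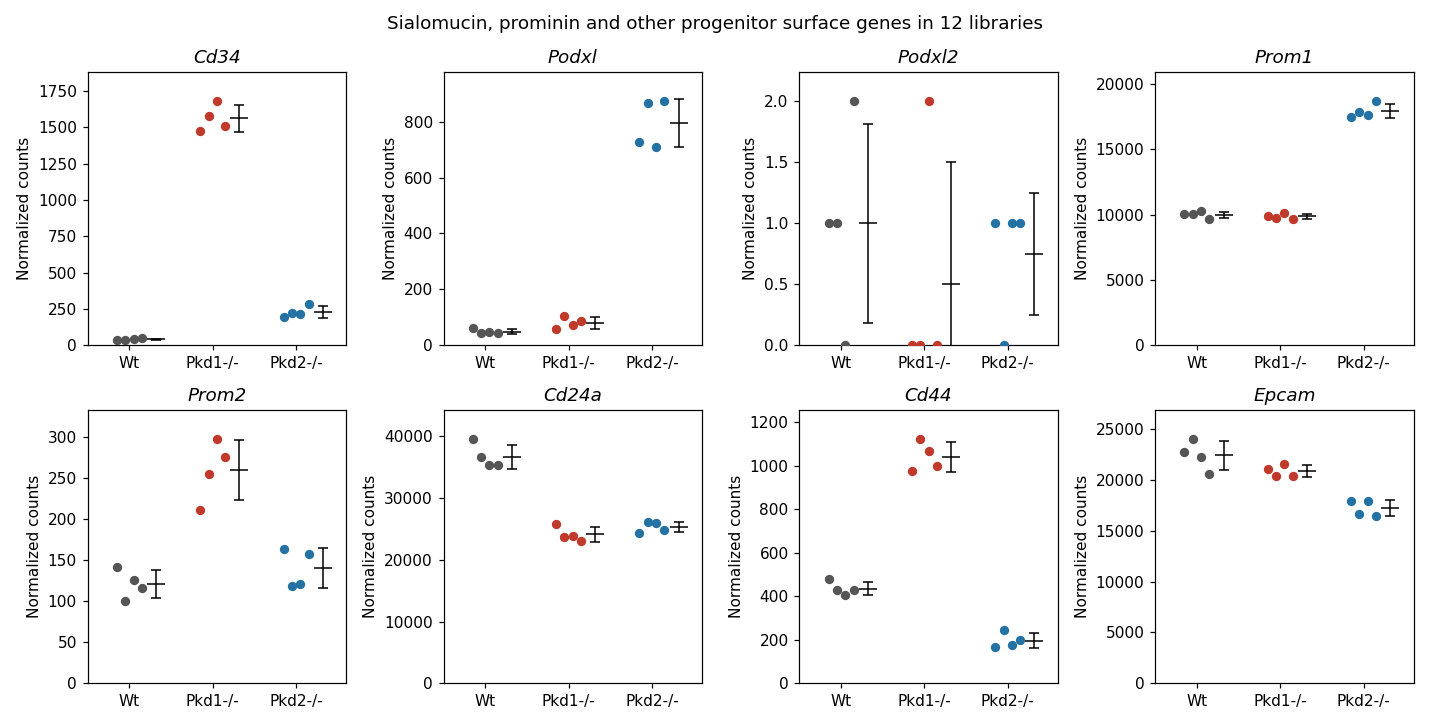
Normalized counts of the 8 genes (vertical axes, linear and starting at 0, a scale for each gene) in wild-type (Wt, grey), Pkd1-/- (red) and Pkd2-/- (blue). Points are single libraries and the black bar is the mean with its SD over 4 libraries, drawn down to 0 at most. Cd34 is highest in Pkd1-/- with a mean of 1561, Podxl is highest in Pkd2-/- with a mean of 795, and Cd44 lies above wild-type in one mutant and below it in the other.

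Cd34 (ENSMUSG00000016494) lies on the forward strand at chr1:194938819-194961279 of GRCm38. In wild-type it had 37, 35, 41 and 47 normalized counts in replicates 1 to 4. In Pkd1-/- it had 1475, 1580, 1680 and 1510. In Pkd2-/- it had 191, 218, 217 and 284. Every library of either mutant was above every wild-type library, and every Pkd1-/- library was above every Pkd2-/- library. The means were 40.0 ± 5.29, 1561 ± 90.4 and 227.5 ± 39.7, so that the mean was 39.0 times that of wild-type in Pkd1-/- and 5.69 times in Pkd2-/-. On the log2 scale the differences were 5.26 and 2.47, which placed Cd34 21st and 71st from the top of all 18552 genes. Cd34 was lower in Pkd2-/- than in Pkd1-/- by a log2 fold change of -2.79 ± 0.12 (SE). This difference is a description too, since it is drawn from the same values that chose the gene.

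The sequence before the Cd34 start is printed because the ETS family of transcription factors, whose shared core is GGAA, includes factors described at the promoters of CD34 and CD44. It comes from RefSeq on build GRCm38.p6, covers the 250 bases before the start at chr1:194938571-194938820 on the forward strand, and has GGAA, or TTCC where the core lies on the other strand, in capitals.
Cd34: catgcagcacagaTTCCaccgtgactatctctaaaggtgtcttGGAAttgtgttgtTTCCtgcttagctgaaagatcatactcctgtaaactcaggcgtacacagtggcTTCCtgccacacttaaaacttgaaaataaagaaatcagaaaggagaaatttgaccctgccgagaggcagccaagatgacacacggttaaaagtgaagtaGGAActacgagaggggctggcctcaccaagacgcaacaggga
The full window of 300 bases, from 250 before to 50 after the start, held 5 matches to GGAA on either strand, and 28.6% of the 32851 promoters of this length in the table had at least as many. GGAA occurs in 96.0% of them. The longer form CCGGAA, which contains GGAA, occurs in 14.9% and was not found in any of the 9 promoters that matched 6 of the 8 genes. Podxl and Cd24a had no entry. The Cd34 window held 7 CpG, which equals the median of 7 over the table.

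Podxl (ENSMUSG00000025608, reverse strand of chr6:31519488-31563981) had the opposite order in the mutants. Its normalized counts were 60, 44, 46 and 44 in wild-type replicates 1 to 4. They were 58, 106, 71 and 85 in Pkd1-/-. They were 729, 867, 711 and 874 in Pkd2-/-. The Pkd2-/- libraries lay far above the other 8, while 1 Pkd1-/- library, at 58, lay below the highest wild-type library, at 60. With means of 48.5 ± 7.72 and 795 ± 87.2, Podxl was 16.4 times as high in Pkd2-/- as in wild-type, a log2 fold change of 4.01 ± 0.16 (SE, adjusted p = 3.58e-13), the 10th highest of all genes tested. In Pkd1-/- the mean was 80.0 ± 20.5, and the gene rose by a log2 fold change of 0.69 ± 0.16 (adjusted p = 0.00293) without being called. Pkd2-/- was above Pkd1-/- by 3.33 ± 0.16 (adjusted p = 3.51e-12).

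Podxl2 (ENSMUSG00000033152, reverse strand of chr6:88842558-88875044), the third sialomucin, had 0 to 2 normalized counts in each of the 12 libraries. With an upper limit of 3 counts behind a value of 0 in a library, a difference in Podxl2 was not detectable at this depth. The limit holds for counting error alone, as no molecular identifiers are described and the reads need not be separate molecules.

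Divided by the length of the merged exons, the 3 sialomucins together gave 14.5 ± 1.35 normalized counts per kilobase in wild-type, 229 ± 13.7 in Pkd1-/- libraries and 176 ± 20.0 in Pkd2-/- (SD, n = 4). Cd34 made up 38.0% ± 5.17 of this sum in wild-type, 93.6% ± 1.47 in Pkd1-/- libraries and 17.7% ± 1.77 in Pkd2-/-. The lowest Pkd1-/- library, at 91.8%, was above the highest of wild-type, at 43.5%, and the lowest of wild-type, at 31.4%, was above the highest of Pkd2-/-, at 19.6%. Because the choice of genes rests on Cd34, these shares are a description. In sequenced pools of cells, more cells with a transcript and more transcript per cell cannot be told apart.

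Cd44 (ENSMUSG00000005087, reverse strand of chr2:102811141-102901665) was the member that moved in opposite directions. Wild-type replicates 1 to 4 had 478, 429, 406 and 428 normalized counts. Pkd1-/- had 973, 1120, 1066 and 996. Pkd2-/- had 167, 246, 176 and 198. None of the genotypes overlapped. The mean went from 435 ± 30.4 in wild-type to 1039 ± 67.1 in Pkd1-/-, a rise of 1.25 ± 0.10 on the log2 scale (SE, adjusted p = 1.71e-08), and to 197 ± 35.3 in Pkd2-/-, a log2 fold change of -1.16 ± 0.10 (adjusted p = 2.37e-08). Pkd2-/- lay below Pkd1-/- by a log2 fold change of -2.41 ± 0.10 (adjusted p = 4.54e-13). The Cd44 sequence is shown for the same reason as that of Cd34. It is the 250 bases before the start, chr2:102901666-102901915 of GRCm38.p6 on the reverse strand, again from RefSeq and with GGAA or TTCC in capitals.
Cd44: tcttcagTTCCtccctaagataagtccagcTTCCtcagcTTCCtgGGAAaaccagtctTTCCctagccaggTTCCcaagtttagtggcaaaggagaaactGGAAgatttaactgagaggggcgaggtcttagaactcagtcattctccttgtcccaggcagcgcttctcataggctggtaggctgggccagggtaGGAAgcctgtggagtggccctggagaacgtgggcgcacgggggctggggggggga
Its window of 300 bases held 8 matches to GGAA, a number that 3.72% of all promoters of this length reach or pass. Of the other members, Prom1 had 4 matches in 1 of its promoters and 8 in the other, Prom2 had 2, which 84.6% of all promoters reach or pass, Epcam had 1, and the 3 promoters of Podxl2 had 0 to 2. A match is a run of letters, and whether a factor binds there was not measured.

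The 2 prominins also differed by genotype. Prom1, or CD133 (ENSMUSG00000029086, reverse strand of chr5:43993620-44102032), had 10053, 10005, 10238 and 9678 normalized counts in wild-type and 9905, 9742, 10119 and 9664 in Pkd1-/-. In Pkd2-/- it had 17491, 17814, 17617 and 18682. Wild-type and Pkd1-/- overlapped and the Pkd2-/- libraries stood above both. The log2 fold change in Pkd1-/- was -0.02 ± 0.04 (SE, adjusted p = 0.779, 95% confidence interval -0.10 to 0.06). In Pkd2-/- Prom1 rose by 0.84 ± 0.04 against wild-type (adjusted p = 4.44e-12), a mean 1.79 times as high that did not reach the fold change for a call, and it was above Pkd1-/- by 0.86 ± 0.04 (adjusted p = 2.18e-12).

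Prom2 (ENSMUSG00000027376, reverse strand of chr2:127526473-127541467), the paralog found mainly in epithelia, was far scarcer. It had 142, 100, 126 and 116 normalized counts in wild-type, 211, 255, 297 and 275 in Pkd1-/- libraries and 164, 118, 121 and 158 in Pkd2-/-. Here the Pkd1-/- libraries stood above the rest, while those of Pkd2-/- overlapped wild-type. Prom2 rose by 1.09 ± 0.14 in Pkd1-/- (SE, adjusted p = 8.77e-06). In Pkd2-/- the difference was 0.21 ± 0.14 (adjusted p = 0.27, 95% confidence interval -0.09 to 0.51). Between the mutants it was -0.89 ± 0.14, lower in Pkd2-/- (adjusted p = 3.91e-05).

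Per kilobase of exon Cd24a and Epcam were the most abundant members in every genotype, and neither was called in any comparison. Cd24a (ENSMUSG00000047139, forward strand of chr10:43578284-43584265) had 39448, 36537, 35313 and 35346 normalized counts in wild-type, 25833, 23592, 23904 and 22967 in Pkd1-/- libraries and 24390, 26085, 26004 and 24758 in Pkd2-/-. All libraries of both mutants lay below all of wild-type. It fell by a log2 fold change of -0.61 ± 0.05 in Pkd1-/- (SE, adjusted p = 2.51e-08) and of -0.53 ± 0.05 in Pkd2-/- (adjusted p = 6.6e-08), that is to 0.657 and 0.690 times the mean of wild-type. The mutants differed by 0.07 ± 0.05 (adjusted p = 0.258, 95% confidence interval -0.03 to 0.18).

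Epcam (ENSMUSG00000045394, forward strand of chr17:87635979-87651129) had 22739, 23947, 22263 and 20576 normalized counts in wild-type, 21069, 20386, 21533 and 20366 in Pkd1-/- libraries and 17895, 16664, 17944 and 16445 in Pkd2-/-. The Pkd2-/- libraries lay below the other 8. In Pkd2-/- Epcam fell by a log2 fold change of -0.38 ± 0.05 against wild-type (SE, adjusted p = 6.05e-06) and of -0.27 ± 0.05 against Pkd1-/- (adjusted p = 0.000161). In Pkd1-/- the difference from wild-type was -0.10 ± 0.05 (adjusted p = 0.154, 95% confidence interval -0.21 to 0.00426).

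Between the mutants, 2 of the 6 tested members other than Cd34 were higher in Pkd2-/- (Podxl and Prom1) and 3 were lower (Prom2, Cd44 and Epcam), beside 21.9% and 24.3% of all genes. Podxl was called higher and Cd44 lower, where 4.53% and 7.23% of all genes were. Cd34, whose values chose the set, is not counted among these.

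**Figure D2:**
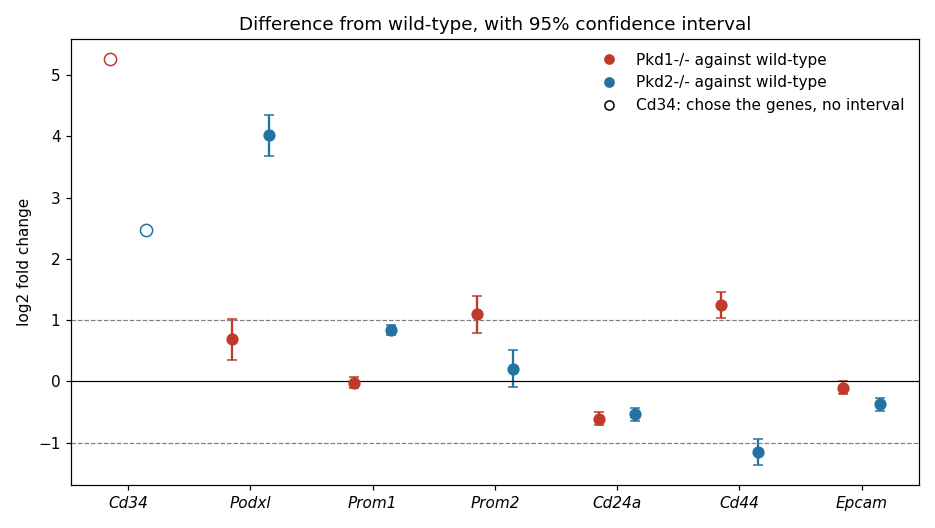
The log2 fold change against wild-type (vertical axis) of the 7 tested members, for Pkd1-/- (red) and Pkd2-/- (blue). Bars are 95% confidence intervals, dashed lines mark the fold change for a call, and the open circles of Cd34, at 5.26 and 2.47, have no interval because this gene chose the set. Cd44 lies at 1.25 in Pkd1-/- and -1.16 in Pkd2-/-, and Podxl at 0.69 and 4.01.

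Per kilobase of exon the members spanned a wide range in wild-type cells. Cd24a gave 14210 ± 753 normalized counts per kilobase, Epcam 10196 ± 636 and Prom1 1393 ± 32.5 (SD, n = 4). Cd44 followed at 64.2 ± 4.49, then Prom2 at 23.3 ± 3.40, Podxl at 8.84 ± 1.41, Cd34 at 5.49 ± 0.73 and Podxl2 at 0.174 ± 0.142. Each gap between neighbours in this order exceeded the summed SDs of the pair. In Pkd1-/- Cd34 reached 214 ± 12.4 per kilobase, above Cd44 at 153 ± 9.90, and Cd24a at 9331 ± 479 and Epcam at 9494 ± 258 did not differ beyond their spread. In Pkd2-/- Podxl reached 145 ± 15.9, and Cd34 at 31.2 ± 5.44, Cd44 at 29.0 ± 5.21 and Prom2 at 27.0 ± 4.65 lay within their spread. By normalized count, Cd34 went from rank 11625 of all listed genes in wild-type to 4572 in Pkd1-/- libraries and 9531 in Pkd2-/-.

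**Figure D3:**
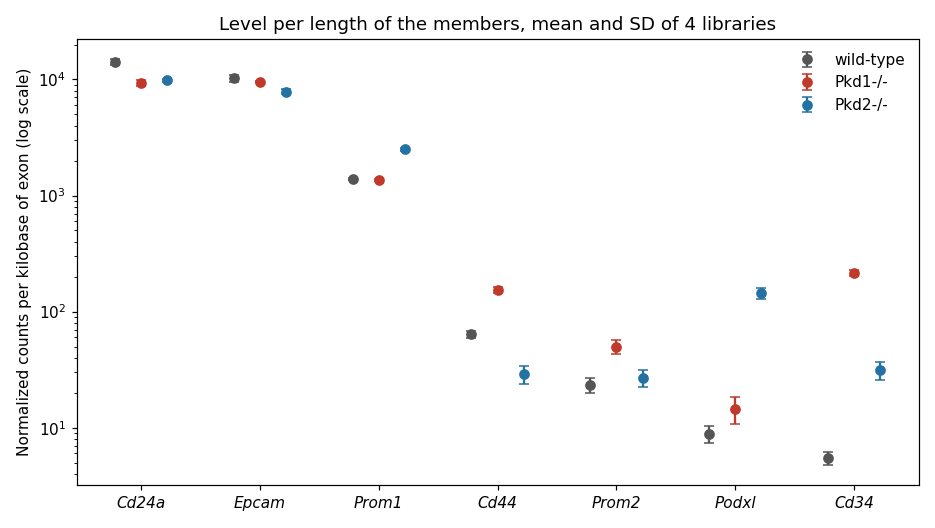
Normalized counts per kilobase of merged exon (vertical axis, log scale) of 7 members, ordered by their level in wild-type, as mean and SD of 4 libraries for wild-type (grey), Pkd1-/- (red) and Pkd2-/- (blue). Podxl2, at 0.174 in wild-type, is left out. Cd34 and Podxl change their place among the members, from 5.49 to 214 and from 8.84 to 145 per kilobase.

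The cell types for which CD34 and podocalyxin are textbook markers were looked for by their other genes. Of 10 endothelial markers 4 (Cdh5, Tie1, Erg and Kdr) were at 0 in all libraries, and the sum of the 10 was 4 to 17 normalized counts in wild-type, 6 to 14 in Pkd1-/- libraries and 11 to 23 in Pkd2-/-, with Eng and Pecam1 as its main part. None of the 2 tested endothelial markers rose or fell. Of 10 haematopoietic markers Kit and Cd48 were among those at 0 in all libraries, Ptprc (CD45) averaged 3.00 in wild-type and 2.00 in Pkd2-/- and was called lower in Pkd1-/- at 0.25 (adjusted p = 0.0451), and the list sums, 897 to 1233, 1882 to 2088 and 804 to 1176, came almost wholly from Runx1, which epithelia also express. Spi1 fell in Pkd1-/- (6.50 to 2.25, adjusted p = 0.019) and rose in Pkd2-/- (to 14.25, adjusted p = 0.0165). Runx1, far more abundant than Ptprc and Spi1, was higher in the Pkd1-/- clone. Its libraries there had 1877 to 2083 normalized counts, all above the wild-type range of 884 to 1219. The Pkd2-/- range, 788 to 1160, overlapped that of wild-type. Of the 5 tested haematopoietic markers, 1 rose and 2 fell in Pkd1-/-, beside 13.6% and 13.5% of all genes. In Pkd2-/- 1 rose and 0 fell, beside 20.0% and 22.3%. Ptprc and Spi1 were at a few counts and are limited by depth.

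Of 8 podocyte markers Tcf21 and Ptpro were at 0 and Nphs1 (nephrin) was at most 8. The list sums were 12693 to 14848 in wild-type, 13631 to 15905 in Pkd1-/- libraries and 16429 to 20279 in Pkd2-/-. They came from Kirrel, Cd2ap and Synpo. From wild-type to Pkd2-/- the mean of Kirrel went from 6025 to 8612.5 and that of Cd2ap from 4583 to 7350. That of Synpo went from 3172.5 to 2108.5. Of the 4 tested podocyte markers, 1 rose and 0 fell in Pkd1-/-, beside 13.6% and 13.5% of all genes. In Pkd2-/- 2 rose and 1 fell, beside 20.0% and 22.3%. Wt1, a podocyte factor described at the podocalyxin promoter, had 1 normalized count in 1 wild-type library and 0 in the other 11. Stromal markers summed to 140 to 175, 152 to 230 and 35 to 119. Of the 5 tested, 2 were called lower in Pkd2-/-, where 6.38% of all genes were. These were Pdgfrb (a mean of 2.50 in wild-type, against 0) and Acta2 (119.5 in wild-type, against 21). Col3a1, a fibrillar collagen, was called higher in Pkd1-/- (62 to 69 normalized counts, against 3 to 7 in wild-type, adjusted p = 0.00359), and in Pkd2-/- its libraries were at 16, 0, 42 and 0. Nephron progenitor markers summed to 3547 to 4023, 6122 to 6569 and 2490 to 3011. These sums came mostly from Eya1, with means of 3000.5, 5298.5 and 1983 in wild-type, Pkd1-/- and Pkd2-/-. Of the 6 tested, 2 rose and 1 fell in Pkd1-/-, beside 13.6% and 13.5% of all genes. In Pkd2-/- 0 rose and 3 fell, beside 20.0% and 22.3%. Osr1, a factor of early kidney mesenchyme, was called higher in Pkd1-/- (274 to 336, against 44 to 74, log2 fold change 2.32 ± 0.18, adjusted p = 8.77e-09) and lower in Pkd2-/- (18 to 28, -1.44 ± 0.18, adjusted p = 2.21e-06), whereas Six2 was at 0 in all libraries and Ncam1, at a mean of 10 in wild-type, was called lower in both mutants, at 0.75 and 0.50. Of 13 tested collecting duct and epithelial markers, 1 rose and 5 fell in Pkd1-/-, while 9 rose and 1 fell in Pkd2-/-. Of all genes, 13.6% rose and 13.5% fell in the first comparison, and 20.0% and 22.3% in the second. Gata3, a factor of the collecting duct, was called lower in Pkd1-/- (42 to 56, against 176 to 248, -2.20 ± 0.14, adjusted p = 6.34e-10), and Elf5, at a mean of 5.75 against 0.25, was called higher there (adjusted p = 0.007). The part of these genes in the differences of the members was not tested.

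The 86 genes that carry, modify, bind or regulate the members, in 8 lists, gave 74 tested genes. In Pkd1-/- 15 rose and 20 fell, with 2 called higher and 3 lower, where 13.6% of all genes rose, 13.5% fell, 2.96% were called higher and 3.28% lower. In Pkd2-/- 24 rose and 25 fell, with 2 called higher and 14 lower, where 20.0% of all genes rose, 22.3% fell, 3.24% were called higher and 6.38% lower. The counts of the single lists stand against these same shares. The median log2 fold changes were 0.02 and -0.05, beside 0.01 and -0.0064 over all genes tested.

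The scaffold that ties CD34 and podocalyxin to actin held no called gene. Of 8 tested genes 2 rose and 1 fell in Pkd1-/-, 3 rose and 2 fell in Pkd2-/-, with medians of 0.03 and 0.18. Ezr, or ezrin, which links podocalyxin to the actin cortex and was the most abundant gene of the list, differed by 0.0046 ± 0.04 in Pkd1-/- (SE, adjusted p = 0.96) and rose by 0.27 ± 0.04 in Pkd2-/- (adjusted p = 6.84e-05).

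Among the 14 genes that carry podocalyxin to the apical membrane, 2 rose and 4 fell in Pkd1-/- and 5 rose and 6 fell in Pkd2-/-, with medians of -0.09 and -0.11. None was called higher in either mutant. Of the 1 called lower in Pkd1-/- and the 4 in Pkd2-/-, Sytl2 (synaptotagmin-like 2, a vesicle tether) fell in both. It had 225 to 349 normalized counts in wild-type, 117 to 146 in Pkd1-/- libraries and 55 to 91 in Pkd2-/-, with log2 fold changes of -1.22 ± 0.16 (SE, adjusted p = 7e-06) and -2.05 ± 0.16 (adjusted p = 3.51e-09). Sytl4, a related tether, fell in Pkd2-/- from 433 to 513 down to 101 to 136, by -1.99 ± 0.10 (adjusted p = 7.64e-12), and was at -0.24 ± 0.10 in Pkd1-/- (adjusted p = 0.0757). Rab27b, the GTPase that such tethers bind, fell in Pkd2-/- by -1.20 ± 0.15 (adjusted p = 2.39e-06), and Rab3b, named after its value was seen, had -1.09. The kinase Prkci, the most abundant of the list, rose in Pkd2-/- by 0.27 ± 0.05 (adjusted p = 0.000217).

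Selectin binding by sialomucins needs enzymes that build their O-glycans. Of the 11 tested of 14, 2 rose and 3 fell in Pkd1-/- and 4 rose and 5 fell in Pkd2-/-, with medians of -0.15 and -0.20. Gcnt1, which branches core 1 O-glycans and was named after its value was seen, was the 1 gene called in Pkd1-/-. It had 1061 to 1264 normalized counts in wild-type, 2301 to 2485 in Pkd1-/- libraries and 618 to 771 in Pkd2-/-, a rise of 1.06 ± 0.07 (SE, adjusted p = 1.84e-09) and a log2 fold change of -0.73 ± 0.07 in Pkd2-/- (adjusted p = 1.35e-07). B3gnt3, which extends core 1, was called higher in Pkd2-/- (567 to 667, against 260 to 294, log2 fold change 1.11 ± 0.09, adjusted p = 4.16e-09) and fell in Pkd1-/- by -0.45 ± 0.09 (adjusted p = 0.000564). The sialyltransferase St3gal1 had 21, 12, 8 and 18 normalized counts in wild-type and 0, 0, 2 and 0 in Pkd2-/-, and was called lower there (adjusted p = 1.96e-06). The sulfotransferase Chst1, also called lower in Pkd2-/- (adjusted p = 0.000615), had 13, 3, 3 and 11 in wild-type and 0 in all 4 Pkd2-/- libraries, and was thus at least 2.50-fold lower against a floor of 3 counts per library. C1galt1, which makes core 1 and was the most abundant, rose in Pkd2-/- by 0.22 ± 0.06 (adjusted p = 0.00995). Of the lectin receptors, 3 of 4 genes were at 0 in all libraries and Selp had 2 normalized counts in 1 wild-type library, so none was tested.

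Around CD44, 4 of 11 tested genes rose and 2 fell in Pkd1-/-, and 2 rose and 3 fell in Pkd2-/-, with medians of 0.16 and -0.09. Spp1, or osteopontin, a secreted ligand of CD44, was called lower in both mutants. It had 4180, 3826, 3578 and 3880 normalized counts in wild-type, 926 to 1121 in Pkd1-/- libraries and 985 to 1075 in Pkd2-/-, with log2 fold changes of -1.92 ± 0.06 (SE, adjusted p = 5.03e-14) and -1.91 ± 0.06 (adjusted p = 1.52e-14). Has2, a hyaluronan synthase, had 17, 28, 11 and 26 in wild-type and 2, 4, 5 and 3 in Pkd2-/-, where it was called lower by -2.22 ± 0.33 (adjusted p = 1.83e-05). In Pkd1-/- its values were 29 to 45 (log2 fold change 0.80 ± 0.33, adjusted p = 0.0803). Esrp1, the splicing regulator that keeps Cd44 in its epithelial forms, was at -0.0034 ± 0.05 and -0.09 ± 0.05 in the mutants (adjusted p = 0.974 and 0.113). The counts per gene do not separate the splice forms of Cd44.

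Partners of EpCAM held genes that were called although Epcam was not. Of 12 tested genes 2 rose and 5 fell in Pkd1-/- and 3 rose and 3 fell in Pkd2-/-, with medians of -0.08 and -0.03. Tspan8, a tetraspanin that joins EpCAM in the membrane, had 268 to 335 normalized counts in wild-type, 36 to 59 in Pkd1-/- libraries and 1128 to 1215 in Pkd2-/-. It was called in opposite directions, at -2.71 ± 0.12 (SE, adjusted p = 4.19e-12) and 1.94 ± 0.12 (adjusted p = 2.1e-10). Cldn1, or claudin-1, a tight junction protein, had 517 to 592 in wild-type, 852 to 1028 in Pkd1-/- libraries and 55 to 80 in Pkd2-/-. It rose by 0.75 ± 0.10 in Pkd1-/- (adjusted p = 1.73e-05) and was called lower in Pkd2-/-, at -3.06 ± 0.10 (adjusted p = 2.96e-14). Fhl2, which takes part in signalling by the cleaved tail of EpCAM, was called lower in Pkd2-/- (-1.06 ± 0.06, adjusted p = 3.98e-11) and rose in Pkd1-/- by 0.20 ± 0.06 (adjusted p = 0.0145). Spint2, a protease inhibitor and the most abundant of the list, was at -0.15 and -0.11 (adjusted p = 0.0537 and 0.13).

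Of the 5 prominin partners none was called against wild-type. Ttyh3, of the tweety family, rose by 0.76 ± 0.06 in Pkd1-/- (SE, adjusted p = 8.32e-09) and fell in Pkd2-/-, at -0.39 ± 0.06 (adjusted p = 2.19e-05). The list as a whole had 2 genes that rose and 1 that fell in Pkd1-/-, and 1 of each in Pkd2-/-, with medians of 0.11 and 0.02.

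Of 13 tested transcription factors described at these genes, 1 rose and 4 fell in Pkd1-/- and 6 rose and 5 fell in Pkd2-/-, with medians of 0.06 and 0.12, beside 13.6% and 13.5% of all genes in Pkd1-/- and 20.0% and 22.3% in Pkd2-/-. Ets2 had 6451 to 6727 normalized counts in wild-type, 3819 to 3916 in Pkd1-/- libraries and 6546 to 7755 in Pkd2-/-. It fell in Pkd1-/- by a log2 fold change of -0.75 ± 0.05 (SE, adjusted p = 7.55e-10), and was at 0.12 ± 0.05 in Pkd2-/- (adjusted p = 0.0519). Ets1, named after its value was seen, had means of 2689, 2165 and 4212 in wild-type, Pkd1-/- and Pkd2-/-, and fell in Pkd1-/- by -0.31 ± 0.06 (adjusted p = 0.000776) and rose in Pkd2-/- by 0.65 ± 0.06 (adjusted p = 7.95e-08). Myb, a factor of haematopoietic progenitors, was called lower in Pkd2-/- (19 to 38, against 72 to 106, -1.69 ± 0.21, adjusted p = 2.51e-06) and had 94 to 164 in Pkd1-/- (adjusted p = 0.173). Klf4 had 2, 5, 4 and 7 in wild-type and 0 in all 4 Pkd2-/- libraries, was called lower there (adjusted p = 0.000188), and was at least 1.5-fold lower against the floor of 3 counts per library. Zeb1, a repressor of epithelial genes, had 5 to 12 in wild-type and 2 to 4 in Pkd2-/- (adjusted p = 0.0132). Ehf, the most abundant factor of the list, fell by -0.29 ± 0.05 and -0.19 ± 0.05 (adjusted p = 0.000225 and 0.00449). Zeb2 at 1.06 in Pkd1-/- and Ovol2 at -1.06 in Pkd2-/- were the other factors called, and were named after their values were seen.

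**Figure D4:**
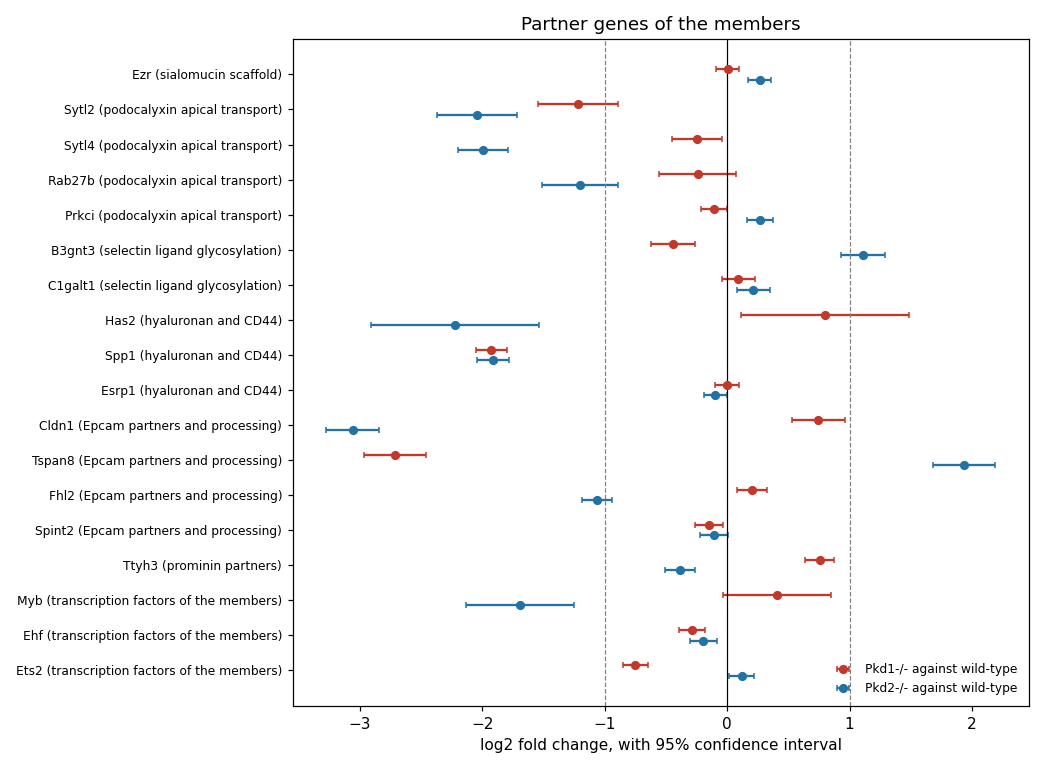
The log2 fold change against wild-type (horizontal axis) of named partner genes, with the list of each in brackets, for Pkd1-/- (red) and Pkd2-/- (blue). Bars are 95% confidence intervals and dashed lines mark the fold change for a call, and genes with a genotype mean under 3 normalized counts are left out. Tspan8 (-2.71 and 1.94) and Cldn1 (0.75 and -3.06) lie on opposite sides of 0 in the mutants, and Spp1 lies at -1.92 and -1.91.

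The genes beside the members on the chromosome were compared with them. Cd34 had 6 tested genes within 1 Mb, with median log2 fold changes of -0.26 in Pkd1-/- and 0.13 in Pkd2-/-, and the 1 called in Pkd1-/-, higher, was Gm16897, an antisense gene inside Cd34 with a mean of 2.75 normalized counts over all libraries. Whether the reads were counted by strand is not stated, so its reads and those of Cd34 cannot be told apart. In Pkd2-/- none of the 6 was called higher and 1 was called lower, Plxna2 at -2.43 (adjusted p = 0.00279), which was named after its value was seen. Plxna2 had a mean of 3.0 normalized counts over all libraries. Of all genes, 2.96% were called higher and 3.28% lower in Pkd1-/-, and 3.24% and 6.38% in Pkd2-/-. Podxl had 10 tested neighbours with medians of 0.12 and -0.05. In Pkd1-/- 2 were called higher (Mest and Mkln1os, named after their values were seen) and 1 lower. Of all genes, 2.96% and 3.28% were called so. In Pkd2-/- none was called higher and 1 was called lower, beside 3.24% and 6.38% of all genes. Around Cd44, 20 tested genes had medians of 0.07 and 0.05. In Pkd2-/- 5 of them rose and 6 fell. None was called higher and 4 were called lower, where 6.38% of all genes were. These were Prr5l at -2.45, Ldlrad3 at -4.62, Fjx1 at -3.90 and Pamr1 at -1.98, also named after their values were seen. Their means over all libraries were 60.3, 44.75, 6.08 and 1.42 normalized counts in this order. Prom2 was the reverse case. In Pkd2-/- 19 of its 29 tested neighbours rose, beside the 20.0% of all genes, and none fell. The median of the 29 was 0.42, where Prom2 itself was at 0.21. Of the 29, 5 were called higher, beside 3.24% of all genes. These, named after their values were seen, were Kcnip3, Acoxl, Gm14005, Dusp2 and Mal. Their means over all libraries were 3.0, 3.5, 9.75, 187 and 13929 normalized counts.

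**Figure D5:**
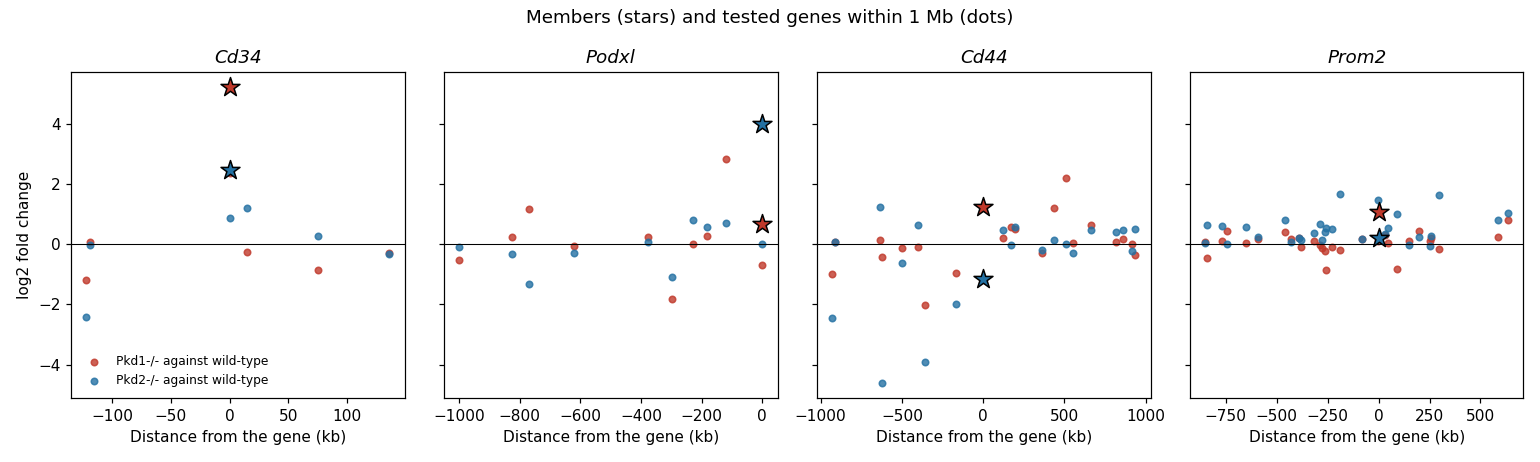
The log2 fold change against wild-type (vertical axis) of Cd34, Podxl, Cd44 and Prom2 (stars) and of the tested genes within 1 Mb (dots), by distance from the gene in kilobases (horizontal axis), for Pkd1-/- (red) and Pkd2-/- (blue). The stars of Cd34, at 5.26 and 2.47, and that of Podxl in Pkd2-/-, at 4.01, stand above all neighbours in the same mutant, and the neighbours of Prom2 lie mostly above 0 in Pkd2-/-, with a median of 0.42.

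The genes whose pattern over the 12 libraries was most like that of a member were found by Pearson's r of log2 values among 13702 genes that averaged 10 normalized counts or more. The r is a description, since the 12 points fall into 3 genotypes. For Cd34 the 5 nearest were Fmnl3 (r = 0.988), Pdgfa (0.985), Acsl3 (0.984), Pde4d (0.984) and Mthfd1l (0.983). All 5 were highest in Pkd1-/- and lowest in wild-type, an order that follows from their choice by likeness to Cd34. The r does not weigh the size of a difference. Fmnl3 had means of 6087, 9054.5 and 7211 in wild-type, Pkd1-/- and Pkd2-/-. Pde4d, a phosphodiesterase that breaks down cyclic AMP, had 102.0 ± 14.4, 402.5 ± 17.7 and 214 ± 31.4 in the same order. For Podxl they were Gpr146 (0.996), Eprs (0.994), Slco2a1 (0.993), Usp8 (0.991) and Hspd1 (0.991), of which Slco2a1, a prostaglandin transporter, had the widest range, from 304 ± 23.5 in wild-type to 493 ± 49.6 in Pkd1-/- libraries and 2756 ± 185 in Pkd2-/-. For Cd44 they were Emp1 (0.995), Eya1 (0.993), Tprg (0.993), Mgp (0.991) and Ltbp1 (0.989). Mgp, a matrix protein that inhibits calcification, averaged 12 ± 2.16 in wild-type and 189 ± 9.36 in Pkd1-/- and was at 0 in all 4 Pkd2-/- libraries.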

How the data were processed

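RNA of 12 libraries was sequenced by the authors, who used Trim Galore for trimming, HISAT2 for alignment to the GRCm38 genome and htseq-count for counts per gene. The deposited score values are these counts divided by DESeq2 size factors and rounded to whole numbers, so models of read counts were not used. In 6 libraries, gaps between low values showed that 1 read is worth 1.00 to 1.13 normalized counts. No 2 libraries were identical, and all sample columns were used. limma 3.58.1 in R 4.3.3 (lmFit, eBayes with a variance trend, two-sided, Benjamini-Hochberg) was fitted to log2(normalized count + 1) of the 18552 genes averaging 1 or more, in all 12 libraries. The test was tested on data with known changes. Tables and figures were made with Python 3.11.15, pandas 2.3.3 and matplotlib 3.10.9. Positions and exon lengths came from GENCODE M21, which held 47223 of the identifiers, and promoters from RefSeq.

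The members, the lists of related genes and the tests were chosen with earlier results of these data known. Named were the members, Pkd1, Pkd2, the 3 called genes of each list with the largest change, its most abundant gene, Ets2, Wt1 and the 5 genes most like Cd34, Podxl and Cd44. P-values measure the spread between dishes. Alternatives were other pseudocounts, filters, scalings and variance models, a replicate block, fewer libraries and no fold change threshold.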

Additional observations from a re-analysis of the deposited data

Results flagged for a closer look

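In wild-type cells the highest Podxl library, at 60 normalized counts, stood apart from the other 3, at 44 to 46, by Dixon's criterion for 4 samples. Chance gives such a library in about 1 of 20 groups, and 21 groups were examined. Without wild-type replicate 1, Podxl was still called higher in Pkd2-/- and was not called in Pkd1-/-.

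For Podxl and Cd44 the difference between the 2 mutant clones was called in the test of Pkd2-/- against Pkd1-/-. For Cd34, whose values chose the set, the difference is a description. The log2 fold change was -2.79 for Cd34, higher in Pkd1-/-, 3.33 for Podxl, higher in Pkd2-/-, and -2.41 for Cd44, which was above wild-type in Pkd1-/- and below it in Pkd2-/-.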

How the results depend on the processing

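Of 565 values recomputed under the alternatives, 550 stayed the same, and none reversed or lost a call. A test stayed the same if it kept its direction and its side of the threshold. A count of genes stayed the same if it lay within a set ratio of the main count. With a minimum mean of 10 normalized counts, 739 genes instead of 1158 were called in Pkd1-/- against wild-type, of fewer genes tested. With no fold change threshold the called genes numbered 5020, 7852 and 8588 in Pkd1-/- against wild-type, Pkd2-/- against wild-type and Pkd2-/- against Pkd1-/-, and the partner genes 35, 49 and 49. Podxl (0.69) and Cd24a (-0.61) in Pkd1-/-, Prom1 (0.84), Cd24a (-0.53) and Epcam (-0.38) in Pkd2-/-, and Prom1 (0.86), Prom2 (-0.89) and Epcam (-0.27) between the mutants then passed. Each library left out in turn, the called genes ranged from 1095 to 1162, 1697 to 1793 and 2067 to 2187 in the same order, Prom2 in Pkd1-/- from 1.01 to 1.19, and Cd44 in Pkd2-/- from -1.27 to -1.08.

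Replicate numbers recur in the labels. The deviations of each library from its genotype's mean, gene by gene, were correlated between genotypes. For same-numbered libraries these deviations correlated at -0.07 to 0.20, over 0.1 in 2 of 12 pairs. In 9 of 24 cases a library's deviations correlated best with its own number. The libraries were therefore not treated as paired. The pairs of number 4 were at 0.09, 0.20 and 0.17, and whether those libraries share a factor was not tested. With a replicate block 1170, 1790 and 2183 genes were called, and no call of a member changed.

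Genes at a few counts, such as Podxl2, Klf4, Chst1 and Zeb1, are limited by depth. Stretches of Cd34, Podxl2, Prom1 and Cd24a transcripts are at least 95% identical to those of other genes, for Cd34 over 151 bases of Gm16897 and 110 bases of Gm35024. Some of these other genes overlap the member on the chromosome, namely Gm16897 for Cd34, Gm15612 for Podxl2 and Gm16401 for Prom1.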
